A study of Saccharomyces cerevisiae with 8 samples.

Results

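The L-UBB+1 strain and the control strain were compared at EX, the exponential growth phase, over all genes measured, with weight on gene groups outside the best known pathways. The comparison used the 2 arrays of the L-UBB+1 strain and the 2 arrays of the control strain taken at EX, 4 of the 8 arrays of the series, and 5444 genes, each represented by its probe set with the highest mean over the 8 arrays. The L-UBB+1 strain carried a p413 plasmid from which UBB+1, a frameshifted human ubiquitin, was made constitutively from the TEF promoter, and the control strain carried the same plasmid with the promoter and no insert. Both strains had the CEN.PK113-11C background, which lacks functional *HIS3* and *URA3*, grew under selection for the plasmid in shake flasks with glucose, and were sampled at EX and on day 6 (D6) as biological duplicates. The values were log2 signals from Affymetrix Yeast Genome 2.0 arrays, normalized by the authors. The UBB+1 transcript itself was not analysed here, so expression of the plasmid insert was not checked on these arrays.

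By their labels, the arrays differed by strain far more than by phase, and this bears on every difference given here. Arrays of the L-UBB+1 strain and of the control strain at EX had log2 differences with an SD of 1.2 to 1.23 across genes, against 0.249 between the L-UBB+1 replicates and 0.202 between the control replicates. The L-UBB+1 arrays EX 1 and D6 2 differed by an SD of only 0.086, and EX 2 and D6 1 by 0.143, so both pairs lay closer across the phases than replicates of 1 phase did. The control arrays differed across the phases by 0.248 to 0.505, against 0.202 and 0.256 between the control replicates of EX and of D6, so most of these distances were wider than those between control replicates. The level of 11 measured genes of growth on glucose averaged 9.64 and 9.58 on the L-UBB+1 EX arrays, against 11.73 and 11.82 on the control EX arrays. On the D6 arrays these genes averaged 9.43 and 9.57 in L-UBB+1 cells and 11.87 and 12.05 in control cells. In the other direction, 12 genes that are derepressed after glucose averaged 10.51 and 10.79 in L-UBB+1 cells at EX, against 7.71 and 7.58 in control cells, with 10 of the 12 called higher and 1 lower. The hexokinase *HXK1* was that exception, with a log2 fold change of -2.45 (the call was lost without either control EX array or without L-UBB+1 EX 1, adjusted p up to 0.00217). Of 12 genes of quiescence and stationary phase, 6 were called higher and 0 lower. The control arrays of D6 did not show the derepressed pattern, at 7.13 and 7.26. The strain and the growth state of the cultures therefore cannot be told apart at EX. The labels were taken as given, and whether each array carries the label of its own culture was not tested.

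**Figure D1:**
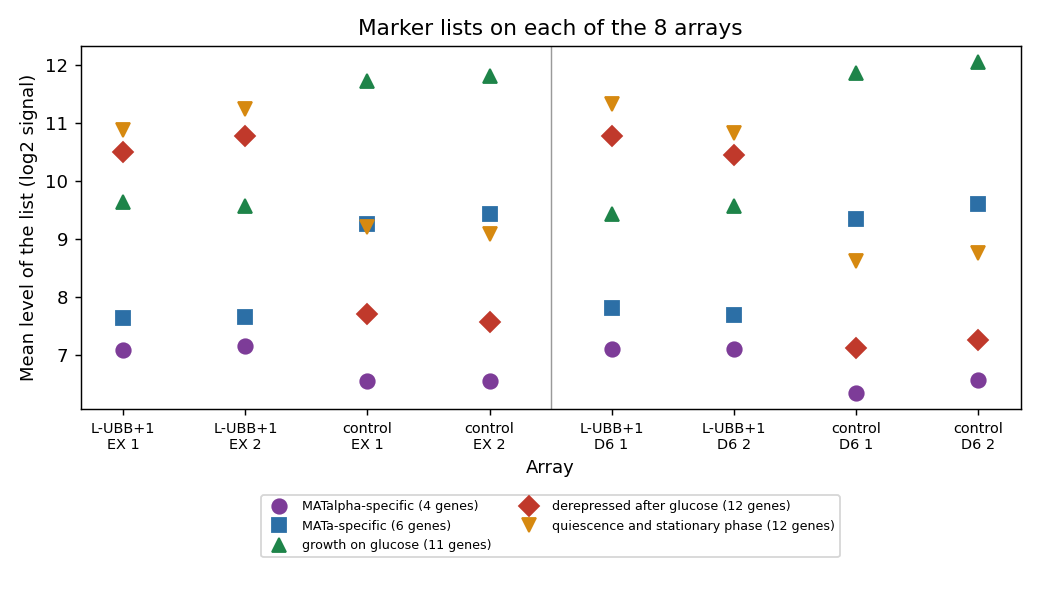
Mean log2 signal of 5 marker lists (symbols) on each of the 8 arrays, EX arrays left of the line and D6 arrays right of it. The genes of growth on glucose lie above 11 on the 4 control arrays and below 10 on the 4 L-UBB+1 arrays, whatever the phase, and the derepressed genes lie the other way round.

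Several mating type genes also stood against the stated genotype. The methods give the background as *MATα*, but the alpha-factor gene *MF(ALPHA)1* lay between the percentiles 3.73 and 6.76 of all genes on the 8 arrays, and *STE3*, the a-factor receptor of alpha cells, between 5.97 and 24.6. *SAG1*, the agglutinin of alpha cells, lay higher, at the percentiles 44.3 and 46.6 on the L-UBB+1 EX arrays. Of the 4 measured genes specific to alpha cells, *SAG1* was the 1 called higher in the L-UBB+1 strain, and 0 were called lower. Its log2 fold change was 1.06 (call lost without control EX 2 or without L-UBB+1 EX 2), and that of *STE3*, not called, was 0.61. *STE2*, the alpha-factor receptor of **a** cells, had log2 levels of 7.79 and 7.55 in L-UBB+1 cells, against 9.99 and 10.35 in control cells (log2 fold change -2.50, standard error 0.17). Of the 6 measured genes specific to **a** cells, 5 were called lower and 0 higher in the L-UBB+1 strain. *MFA1*, which encodes a-factor, was the gene not called, at 9.53 and 9.55 in L-UBB+1 cells and 9.29 and 9.16 in control cells.

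Yeast that has glucose ferments it and represses the genes for other carbon sources, while cells without it respire, store reserves and slow their division. Transcription factors bound to promoters set which genes are read, and the general factors assemble RNA polymerase II at each start site. Metal ions, vitamins and cofactors serve these programmes as parts of enzymes, and duplicated genes often split such roles between growth states.

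Genes were called when limma's adjusted p (Benjamini-Hochberg, over all 5444 genes) lay under 0.001 and the levels of the strains differed by 1 log2 unit or more, with 2 arrays per group. Fold changes are given as log2 of L-UBB+1 over control. By this rule 938 genes (17.2%) were called higher and 929 genes (17.1%) lower in the L-UBB+1 strain, and the median log2 fold change was 0. These shares are the background for every list below. The arrays had been normalized to similar medians (8.34 to 8.41), so a change in the total mRNA of the cells would not be seen, and fewer cells of a kind cannot be told apart from less RNA per cell. Of all genes, 4827 (88.7%) had EX arrays that did not overlap between the strains, and all 1867 called genes were among them. The 5th and 95th percentiles of the log2 fold change were -1.95 and 1.98, with 61 called rises and 50 called falls of more than 8-fold. Of 292 called genes among the 387 chosen for naming, 227 kept the call when any 1 of the 8 arrays was left out. With 1 array left out none of the genes called in both fits changed direction. The threshold of 1 log2 unit in both fits made such a reversal unlikely in advance. Where a call below was lost without a single array, that array is named beside it. Members were named by size of change within each list, and further members after their values were seen.

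Transcription factors were called higher more often than genes at large. Of 163 measured genes for sequence-specific transcription factors, 71 (43.6%) were called higher and 11 (6.75%) lower, with a median log2 fold change of 0.92. The count of rises was 52 to 73 with 1 array left out, the lowest without either control EX array, and that of falls was 5 without control EX 2. *CAT8*, the activator of genes for growth on non-fermentable carbon, had log2 levels of 10.19 and 10.29 in L-UBB+1 cells, against 6.87 and 6.50 in control cells (log2 fold change 3.55, standard error 0.14). *ADR1*, which activates *ADH2* and peroxisomal genes, reached 11.02 and 10.90 in L-UBB+1 cells and 7.60 and 7.51 in control cells (3.4, standard error 0.10). The groups lay more than 3 log2 units apart in both cases. *GSM1*, a zinc cluster factor tied to energy metabolism, was at 10.66 and 10.58 in L-UBB+1 cells, against 8.07 and 7.56 in control cells (2.81, standard error 0.19). *SIP4*, which acts beside Cat8, rose by 2.72 (adjusted p 0.00102 without control EX 2).

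The rises covered factors of many programmes. Nutrient and metal regulators among them were *AFT2* of iron (2.85), *CUP2* of copper (2.75), *ZAP1* of zinc (2.41, call lost without control EX 1, adjusted p 0.00124), *PHO4* of phosphate (2.46) and *MET4* of sulfur amino acids (1.6). *YAP1* of the oxidative stress response rose by 2.21, *RPN4*, the activator of proteasome genes, by 1.92, and *HAP4* and *HAP2* of the complex that activates respiratory genes by 1.41 and 1.6. *REB1*, which binds the promoters of many highly transcribed genes, rose by 1.23 (call lost without either control EX array, adjusted p up to 0.00129). Factors that act on growth genes in opposite ways rose, with *FHL1* (2.0) of ribosomal protein genes and *TOD6* (2.34), a repressor of ribosome biogenesis genes. *IME1*, the master regulator of meiosis, rose by 2.48. The stress activators *MSN2* and *MSN4* were not called, at 0.76 and -0.73.

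The 11 factors called lower held glycolytic and cell cycle regulators. *GCR1*, an activator of glycolytic genes, had a log2 fold change of -1.95, and *TYE7*, which acts on the same genes, of -1.59 (call lost without any 1 of the 4 EX arrays, adjusted p up to 0.00446). *ASH1* of daughter cells (-1.89) and the homeobox repressors *YOX1* (-1.85) and *YHP1* (-1.49) of the cell cycle were also lower. *SRD1*, a GATA-type factor, had the lowest value at -2.53. The other 5, *STP4*, *MIG2*, *HMS2*, *SKO1* and *SWI5*, each lost the call with at least 1 array left out, control EX 2 among them in every case.

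General transcription factors were also called higher more often than lower. Of 46 genes for TFIID, SAGA and the general factors, 18 were called higher and 1 lower, with a median of 0.65 (14 to 18 rises with 1 array left out). *SPT15*, the TATA-binding protein, was at 11.60 and 11.57 in L-UBB+1 cells and at 9.29 and 9.46 in control cells (log2 fold change 2.21, standard error 0.09). *SUA7*, which encodes TFIIB, was at 11.31 and 11.35 in L-UBB+1 cells, against 9.19 and 9.19 in control cells (2.14, standard error 0.11). *SSL2*, the helicase of TFIIH, rose by 2.28 and *TFA2*, a subunit of TFIIE, by 2.27. These 4 genes belong to separate factors of the same start complex, and their arrays lay about 2 log2 units apart. *SUS1*, shared by SAGA and an mRNA export complex, was the member called lower, at -1.29, a call that was lost with any of the EX or control D6 arrays left out.

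Of 46 genes for histone acetylation, methylation and deacetylation, 15 were called higher and 3 lower (median 0.59). *LGE1*, which acts with the ligase Bre1 in the ubiquitination of histone H2B, had log2 levels of 10.39 and 10.21 in L-UBB+1 cells, against 7.59 and 7.65 in control cells (log2 fold change 2.68, standard error 0.10). The ubiquitin-conjugating enzyme of this reaction, *RAD6*, rose by 1.39. *BRE2* of the H3K4 methyltransferase complex rose by 1.58, while *SWD3*, a subunit of the same complex, fell by 1.98. *SAP30* of the Rpd3 deacetylase complex had a log2 fold change of -1.82. Of 32 genes for elongation factors and histone chaperones, 8 were called higher and 2 lower (1 fall without control EX 1), led by *SPT5* at 2.45. Cleavage and polyadenylation held 2 rises and 0 falls among 21 genes, fewer calls in both directions than all genes had.

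Of 25 genes for iron uptake and siderophore transport, 11 (44.0%) were called higher and 0 lower, with a median of 1.28 (8 to 12 rises with 1 array left out, the lowest without either control EX array). *FIT3*, a cell wall mannoprotein that retains siderophore iron, had log2 levels of 11.25 and 10.78 in L-UBB+1 cells, against 7.68 and 7.67 in control cells (log2 fold change 3.34, standard error 0.16). *FIT2*, a related mannoprotein, was at 10.36 and 9.60 in L-UBB+1 cells and at 7.11 and 7.13 in control cells (2.86, standard error 0.22). *TIS11*, whose protein degrades mRNAs of iron-using proteins, rose by 2.47 (call lost without either control EX array, adjusted p up to 0.00287). Most of the spread lay within the L-UBB+1 strain, where replicate 1 was the higher for *FIT2*, *FIT3* and *TIS11*. The siderophore transporter *ARN1* (2.18, call lost without either control EX array, adjusted p up to 0.0019), the reductase *FRE4* (2.35), the vacuolar exporter pair *FTH1* (1.99) and *FET5* (1.8) and the mitochondrial carrier *MRS4* (1.5) rose as well. The high-affinity uptake pair of the plasma membrane was not called, with *FTR1* at 8.46 and 7.56 in L-UBB+1 cells and 8.45 and 8.82 in control cells, which overlap, and *FET3* at -0.88.

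Assembly of iron-sulfur clusters had 7 genes called higher and 4 lower of 27 (median 0.40). The rises were led by the cytosolic machinery, with *NAR1* at 11.57 and 11.42 in L-UBB+1 cells, against 8.19 and 8.38 in control cells (log2 fold change 3.21, standard error 0.17). *DRE2* (2.36) and *NBP35* (1.89), which act in the same cytosolic machinery, and *ISU1* (2.37), the mitochondrial scaffold, rose too. Without the L-UBB+1 arrays EX 1 and D6 2, or without EX 2 and D6 1, only 1 of the 4 falls was called.

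Copper genes had 5 rises and 0 falls among 10 measured (median 0.85; 3 rises without either control EX array). *CUP2*, the copper-responsive activator, was at 11.30 and 11.05 in L-UBB+1 cells, against 8.42 and 8.42 in control cells (log2 fold change 2.75, standard error 0.12). The copper transporter *CTR3* rose by 2.66 and the metallothionein *CRS5* by 1.71. *CUP1-1*, the main metallothionein, was bright on every EX array (12.82 and 13.03 in L-UBB+1 cells, 12.73 and 12.77 in control cells) and was not called; its probe set can also hybridize to related transcripts. Zinc genes had 3 rises and 1 fall of 14 (1 rise without control EX 1). *IZH3*, a membrane protein of zinc homeostasis, rose by 2.52, while *ZPS1*, a cell surface protein that zinc-starved cells make, had a log2 fold change of -1.97 (call lost without any 1 of the 4 EX arrays, adjusted p up to 0.00213).

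**Figure D2:**
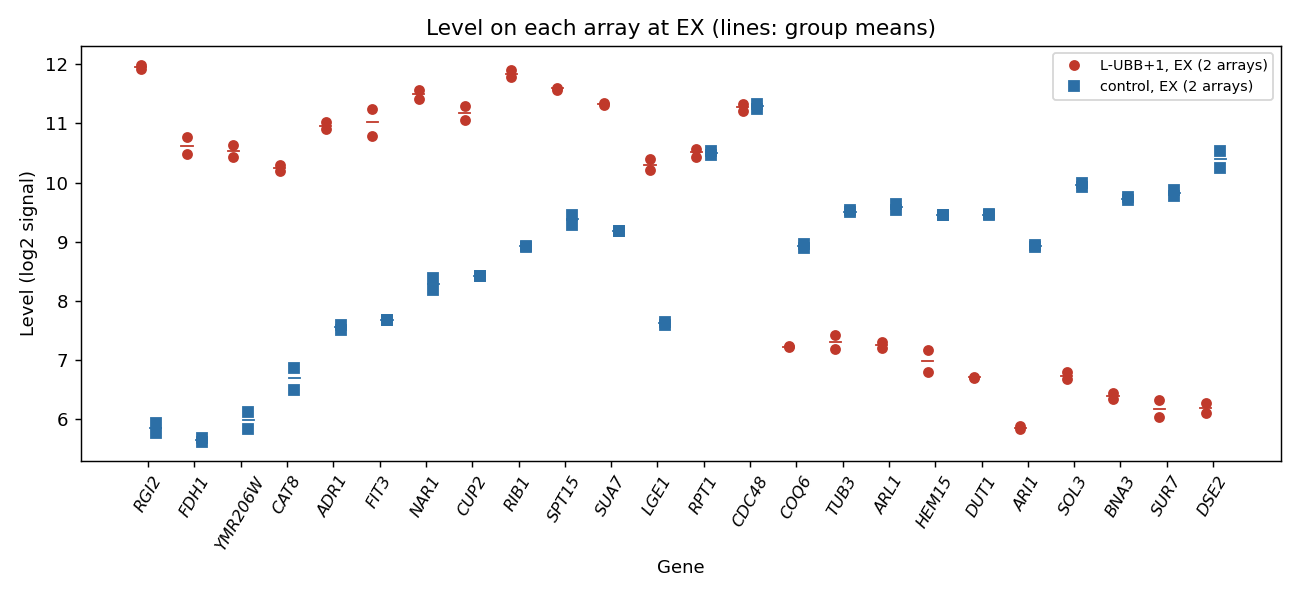
Log2 signal of 24 named genes on each EX array, L-UBB+1 arrays (circles) left of control arrays (squares), with lines at the group means. In 22 of the genes the strains lie more than 1.5 log2 units apart, and in *RPT1* and *CDC48* they overlap.

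Transport of other ions changed gene by gene. *PMA1*, the proton pump of the plasma membrane, was at 9.23 and 8.35 in L-UBB+1 cells, against 11.38 and 11.70 in control cells (log2 fold change -2.75, standard error 0.35; call lost without any 1 of the 4 control arrays, adjusted p up to 0.00314). *PMP2*, a small regulator of the pump, was at 9.07 and 9.19 in L-UBB+1 cells and 11.26 and 11.44 in control cells (-2.22, standard error 0.12). In the same list of 15 genes for potassium, sodium and proton transport, 5 were called higher and 3 lower. *SAT4*, a kinase that promotes potassium uptake, was at 11.74 and 11.68 in L-UBB+1 cells, against 9.10 and 9.18 in control cells (2.57, standard error 0.09). *KHA1*, a cation antiporter, rose by 2.30. The list of phosphate uptake and polyphosphate had 4 rises and 4 falls among 25 (2 falls without either control EX array). *PHO4* reached 10.22 and 9.99 in L-UBB+1 cells and 7.40 and 7.89 in control cells (2.46, standard error 0.18), while the exopolyphosphatase *PPX1* fell by 2.14 and the vacuolar phosphate transporter *PHO91* by 1.76. Of 15 genes for calcium and calcineurin, 2 were called higher, among them *CRZ1*, the calcineurin-responsive factor (1.15), and the vacuolar calcium channel *YVC1* was lower (-2.01), 1 of 2 falls without L-UBB+1 EX 1.

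Several lists of cofactor synthesis had more falls than rises. Of 11 genes of ubiquinone synthesis, which makes the electron carrier of the respiratory chain, 6 were called lower and 0 higher (median -1.46; 5 to 7 falls with 1 array left out). *COQ6* was at 7.23 and 7.24 in L-UBB+1 cells, against 8.96 and 8.90 in control cells (log2 fold change -1.70, standard error 0.14). *COQ8* fell by 1.66, *COQ1* by 1.63, *COQ10* by 1.54 and *COQ2* by 1.46, and *COQ3* by 1.82 (call lost without control EX 1, adjusted p 0.0015). *COQ9* was the 1 member with a positive value, at 0.24, and was not called. The falls stood beside rises of *CAT8*, *HAP4* and the derepressed genes in the same arrays.

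Haem synthesis had calls in both directions, with 2 of 9 genes called higher and 4 lower (median -0.94). *HEM1*, which encodes the first enzyme, had log2 levels of 11.34 and 11.13 in L-UBB+1 cells, against 9.23 and 9.41 in control cells (log2 fold change 1.92, standard error 0.14). *HEM15*, the ferrochelatase of the last step, was at 6.80 and 7.17 in L-UBB+1 cells and 9.46 and 9.45 in control cells (-2.47, standard error 0.19). Between them, *HEM3* fell by 1.24 and *HEM12* by 1.84, and *HEM14* rose by 1.08, a call that was lost without any 1 EX array. The mitochondrial glycine carrier *HEM25* fell by 1.28.

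Synthesis of NAD had more falls than rises. In its list of 20 genes, 3 genes were called higher (1 without either control EX array or without L-UBB+1 EX 1) and 8 lower, with a median of -0.76. *BNA2*, the entry of the kynurenine pathway from tryptophan, rose by 1.75 (call lost without either control EX array or without L-UBB+1 EX 1, adjusted p up to 0.00384). *BNA3*, a kynurenine aminotransferase, was at 6.45 and 6.35 in L-UBB+1 cells, against 9.70 and 9.76 in control cells (log2 fold change -3.33, standard error 0.10). *BNA4* (-2.66), *BNA5* (-1.71), *BNA1* (-2.19) and *BNA6* (-2.39), which carry the path on to the pyridine ring, fell. Of 32 genes for biotin, pantothenate, folate and riboflavin, 4 were called higher and 9 lower. *RIB1*, the first enzyme of riboflavin synthesis, was at 11.90 and 11.78 in L-UBB+1 cells and 8.91 and 8.93 in control cells (2.92, standard error 0.19). *CAB1*, the pantothenate kinase that starts coenzyme A synthesis, fell by 2.16, and *DFR1*, the dihydrofolate reductase, by 1.54. Thiamine had 5 rises and 1 fall among 15 genes (3 rises without either control EX array or without L-UBB+1 EX 1), with the putative transporter *THI73* up by 2.78 and the acid phosphatase *PHO3*, which acts on thiamine phosphates, down by 2.35.

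The pentose phosphate pathway, a source of NADPH and ribose, had 5 falls and 0 rises among 19 genes (median -0.67). With 1 array left out there were up to 2 rises, the highest count without control EX 1. *SOL3*, the 6-phosphogluconolactonase, was at 6.80 and 6.68 in L-UBB+1 cells, against 9.99 and 9.92 in control cells (log2 fold change -3.21, standard error 0.13). The transketolase *TKL1* fell by 2.69, the bisphosphatase *SHB17* by 2.35 and the transaldolase *TAL1* by 1.60. Their paralogues *TKL2* and *NQM1* had positive values of 1.65 and 2.0 and did not pass the test (adjusted p = 0.00352 and 0.00119), but *NQM1* was called without either L-UBB+1 D6 array. Among 19 reductases of aldehydes, ketones and aryl alcohols, 5 were called lower and 1 higher, with 2 falls without control EX 1 and 0 rises without any 1 of the EX or control D6 arrays. *ARI1*, an NADPH-dependent aldehyde reductase, was at 5.84 and 5.88 in L-UBB+1 cells, against 8.94 and 8.91 in control cells (-3.06, standard error 0.08). The aldose reductase *GRE3* fell by 2.16.

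Pyrimidines and deoxynucleotides had 11 falls (39.3%) and 1 rise among 28 genes (8 to 12 falls with 1 array left out, the lowest without either control EX array, and 2 rises without L-UBB+1 EX 1 or either L-UBB+1 D6 array). *DUT1*, the dUTPase that keeps uracil out of DNA, was at 6.70 and 6.71 in L-UBB+1 cells, against 9.46 and 9.47 in control cells (log2 fold change -2.76, standard error 0.08). The dihydroorotase *URA4* fell by 2.79. The large subunit of ribonucleotide reductase, *RNR1*, was at 7.55 and 7.46 in L-UBB+1 cells and 8.99 and 9.22 in control cells (-1.60, standard error 0.11). Its paralogue *RNR3*, known to be induced by DNA damage, was the rise of the list, at 9.66 and 9.61 in L-UBB+1 cells, against 6.98 and 6.99 in control cells (2.65, standard error 0.09). Polyamine genes had 5 falls and 1 rise among 11 (2 falls without control EX 2). The rise was *OAZ1*, the antizyme that holds back polyamine synthesis, at 1.64 (call lost without either control EX array or without L-UBB+1 EX 2, adjusted p up to 0.00224). *PAA1*, a polyamine acetyltransferase, fell by 2.18. The 6 measured galactose genes had no call, though *GAL2*, at 1.08, was called higher without L-UBB+1 EX 1.

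Lipid genes of the plasma membrane moved both ways. Of 29 genes for sphingolipids, 4 were called higher and 8 lower (2 rises without control EX 1). *ELO3* and *ELO2*, which lengthen the fatty acids of sphingolipids, were lower. *ELO3* was at 7.83 and 7.72 in L-UBB+1 cells, against 10.26 and 10.46 in control cells (log2 fold change -2.59, standard error 0.12), and *ELO2* fell by 2.37. *AUR1*, which joins inositol phosphate to ceramide, was at 11.94 and 11.78 in L-UBB+1 cells and 9.44 and 9.61 in control cells (2.34, standard error 0.12). Of 14 eisosome genes, which form furrows of the plasma membrane, 3 rose and 2 fell. *SUR7*, an integral eisosome protein, was at 6.32 and 6.04 in L-UBB+1 cells, against 9.88 and 9.78 in control cells (-3.65, standard error 0.12). The kinase *PKH2*, which acts at eisosomes, rose by 2.37. In the phosphoinositide list of 24 genes, the phospholipase *PLC1* rose by 1.64 and *SFK1*, which acts with the PI 4-kinase at the plasma membrane, fell by 2.21.

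Vesicle traffic had calls near the background or below it. The Rab and Arf GTPases with their regulators had 6 rises and 8 falls among 39 genes. *YEL1*, an exchange factor of Arf3, was at 9.77 and 9.82 in L-UBB+1 cells, against 7.28 and 7.34 in control cells (log2 fold change 2.48, standard error 0.09). *ARL1*, a GTPase of the Golgi, was at 7.21 and 7.31 in L-UBB+1 cells and 9.64 and 9.53 in control cells (-2.32, standard error 0.09). The endosomal Rab *YPT53* rose by 2.41, and *YPT31* of the Golgi fell by 2.11. The Golgi tethers had 0 rises and 3 falls among 18 genes, with *TRS20* of TRAPP at -1.32. ESCRT had 3 rises and 3 falls among 20 genes, and the exocyst list 3 and 2 among 19, with 1 rise in each without either control EX array. In that list *SNC2*, a SNARE of secretory vesicles, rose by 2.18 while *SSO2*, its partner at the plasma membrane, fell by 1.92. The endosomal SNARE *PEP12* rose by 1.67.

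*DSE2*, a daughter-cell glucanase of the septum, was at 6.11 and 6.28 in L-UBB+1 cells, against 10.25 and 10.54 in control cells (log2 fold change -4.20, standard error 0.12). Of 39 genes for polarity, septins and cytokinesis, 3 were called higher and 9 lower (6 falls without control EX 1), among the falls *CHS2*, the chitin synthase of the primary septum (-2.19), and *BUD9* (-2.07). Tubulin genes were lower, with *TUB3* at 7.42 and 7.19 in L-UBB+1 cells and 9.5 and 9.53 in control cells (-2.21, standard error 0.12), and *TUB2* at -1.83. The microtubule list as a whole had 4 rises and 6 falls among 42 genes, and *CDC31*, the centrin of the spindle pole body, rose by 2.01. The cohesin subunit *MCD1* was the 1 fall among 27 genes for cohesin, condensin and Smc5-Smc6, at -2.01, beside 4 rises. Kinetochore genes had 6 rises and 3 falls among 48 (1 fall without the L-UBB+1 arrays EX 1 and D6 2). In mitotic exit, *TEM1*, the GTPase that starts the pathway, fell by 1.76, and *CDH1*, an activator of the anaphase-promoting complex, rose by 1.49.

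Of 11 genes of N-terminal processing and acetylation, 6 were called lower and 0 higher (median -1.19), with the same count when any 1 array was left out and 4 falls without either pair of close L-UBB+1 arrays. The catalytic and auxiliary subunits of NatA, *ARD1* (-1.71) and *NAT1* (-1.35), and of NatB, *NAT3* (-1.22) and *MDM20* (-1.26), were among them, with *MAK3* of NatC (-1.55). *ARD1* was at 6.67 and 6.72 in L-UBB+1 cells, against 8.37 and 8.43 in control cells. The methionine aminopeptidases *MAP1* and *MAP2*, which remove the first methionine, were not called, at 0.54 and 0.19. Prefoldin and the prolyl isomerases had 5 falls and 0 rises among 17 genes. *GIM3* of prefoldin was at 6.71 and 6.71 in L-UBB+1 cells and 9.18 and 9.05 in control cells (log2 fold change -2.41, standard error 0.12), and *PAC10* of the same complex fell by 1.95.

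Nuclear transport and RNA modification had few rises. Karyopherins and the Ran cycle had 1 rise and 5 falls among 23 genes (4.35% and 21.7%, against 17.2% and 17.1% of all genes). The Ran GTPase *GSP1* was at -1.60 and the exportin *MSN5* at 1.39. The nuclear pore had 1 and 4 among 32 (0 rises without control EX 1). The tRNA modification list had 1 rise and 3 falls among 53 genes, 1.89% and 5.66%, against 17.2% and 17.1% of all genes. *KTI11*, needed for wobble uridine modification and diphthamide, rose by 2.68 and *CGI121*, of the complex that modifies adenosine next to the anticodon, fell by 2.53. In mRNA decay, 8 genes rose and 5 fell among 42 (4 rises without control EX 1, and 3 falls without it or either L-UBB+1 EX array). *PUF3*, which binds mRNAs of mitochondrial proteins, was at 10.12 and 9.98 in L-UBB+1 cells, against 7.88 and 7.98 in control cells (log2 fold change 2.12, standard error 0.12), and *NMD2* of nonsense-mediated decay rose by 1.88.

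Protein phosphatase genes had 11 rises and 6 falls among 39 (28.2% and 15.4%). Several rises were targeting subunits of the phosphatase Glc7, with *GIP2* at 9.73 and 9.74 in L-UBB+1 cells, against 7.36 and 6.72 in control cells (log2 fold change 2.70, standard error 0.20). *GIP1*, which acts in sporulation (2.33), and *REG1* of glucose repression (1.88) rose as well. Osmotic stress genes had 5 rises and 2 falls among 23 (0 falls without control EX 1), with the glycerol transporter *STL1* up by 2.57 and *GPD1*, which makes glycerol from glycolytic carbon, down by 1.88 (call lost without either control EX array, adjusted p up to 0.00235).

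Among exporters of drugs and organic ions, 10 of 30 genes rose (33.3%) and 4 fell. *PDR12*, which exports weak organic acids, was at 11.43 and 11.54 in L-UBB+1 cells and 9.04 and 9.35 in control cells (log2 fold change 2.29, standard error 0.13), and *PDR10* rose by 2.29. *STE6*, the a-factor exporter, fell by 2.17.

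Mitochondrial lists outside the respiratory chain had smaller shares of rises than all genes. Their shares of falls were smaller too, except for translation factors and tRNA synthetases (20%, against 17.1% of all genes). Translation factors and tRNA synthetases had 2 rises and 4 falls among 20 genes (1 and 2 without any 1 of the 4 EX arrays), and transcription, RNA and translational activators 3 and 2 among 29 (1 fall without control EX 1, L-UBB+1 EX 1 or either control D6 array). *RPO41*, the mitochondrial RNA polymerase, was at 10.77 and 10.46 in L-UBB+1 cells, against 8.84 and 8.95 in control cells (log2 fold change 1.72, standard error 0.15), and *MDM34* of the contact site between mitochondria and the ER rose by 1.60. The mitochondrial proteases had 0 rises and 2 falls among 15 (0 falls without either control EX array, and 1 rise without L-UBB+1 EX 2 or either L-UBB+1 D6 array).

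Subtelomeric and surface gene families diverged. Of the 14 measured COS and DUP genes, 4 were read on probe sets that can hybridize to related genes. Of 14 COS and DUP membrane proteins, 8 (57.1%) were called lower and 1 higher (5 falls without either control EX array), led by *UIP3* at 7.35 and 7.52 in L-UBB+1 cells, against 10.22 and 10.01 in control cells (log2 fold change -2.68, standard error 0.12). The flocculins and agglutinins, cell surface adhesins, had 3 rises and 0 falls among 7 genes (2 rises without control EX 2 or without L-UBB+1 EX 2), with *FLO10* at 8.66 and 8.67 in L-UBB+1 cells and 6.65 and 6.46 in control cells (2.11, standard error 0.10). *FLO9* rose by 2.77 on a probe set that can hybridize to related genes. Of 20 measured seripauperin, TIR and DAN mannoproteins, 5 were called higher (3 without either control EX array) and 2 lower, with 11 of the 20 on such probe sets, so the members of this family are uncertain. Within it, *TIR2* rose by 2.73 and *TIR3* fell by 1.98.

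**Figure D3:**
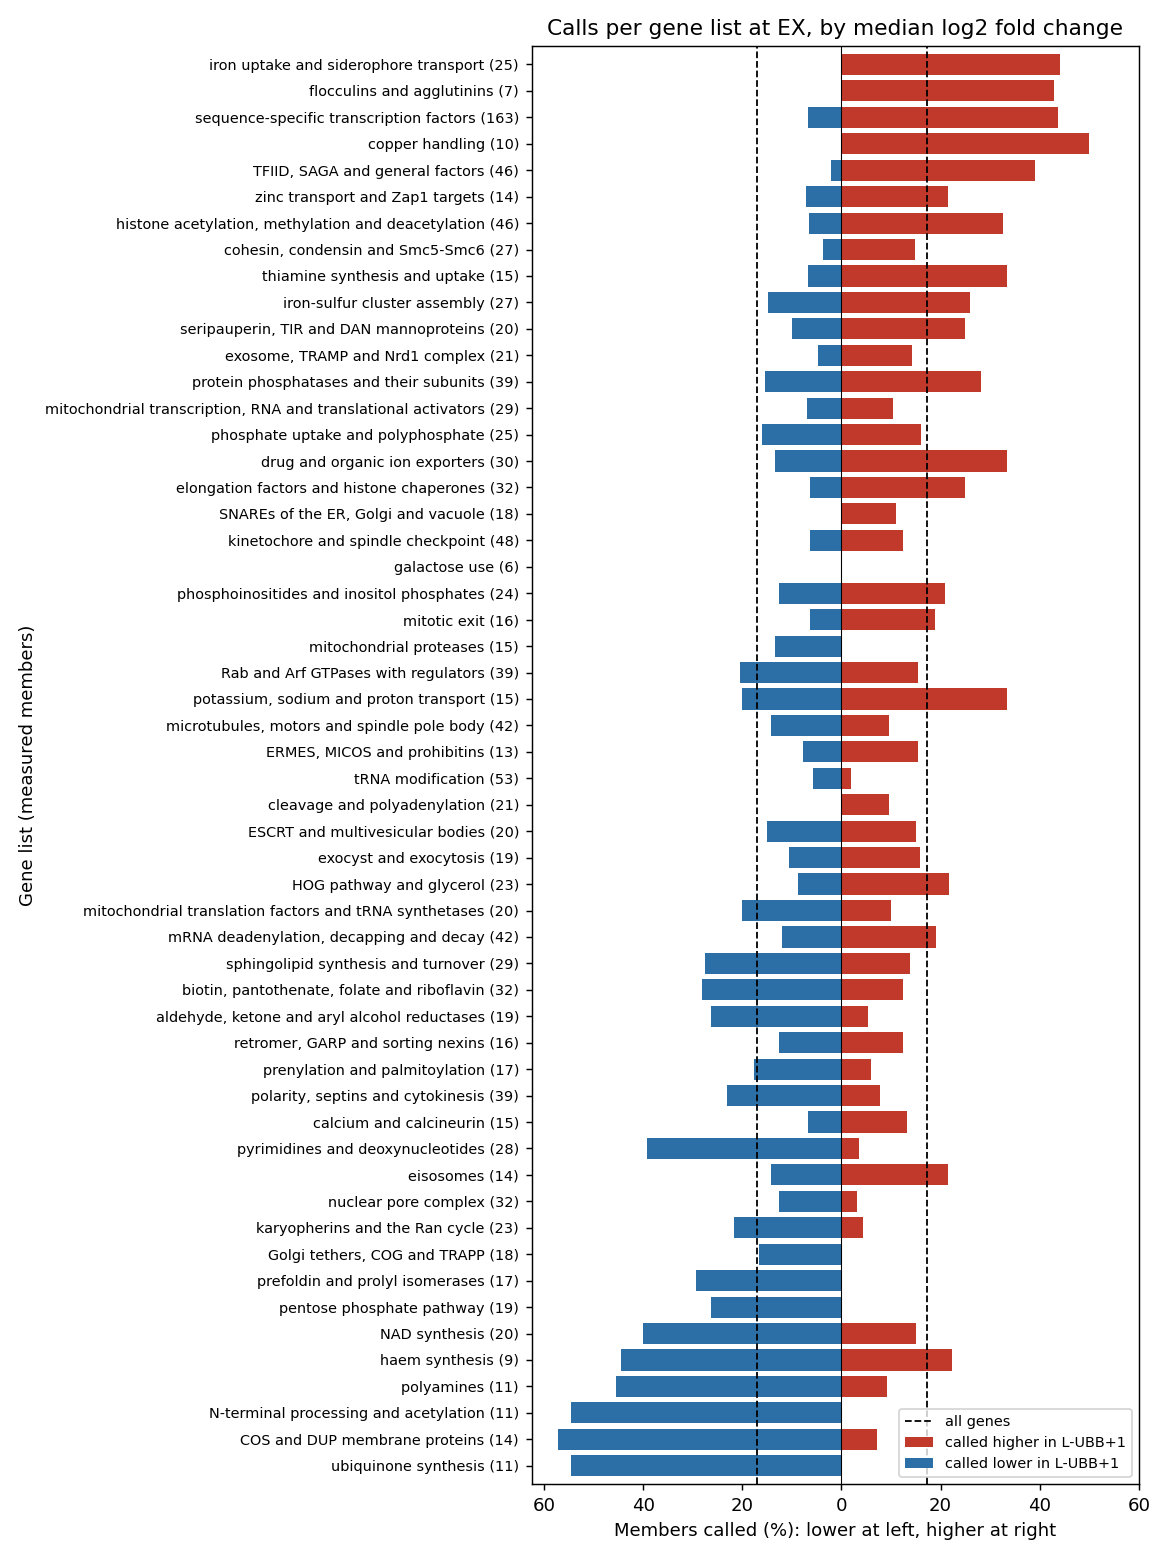
Share of the measured members (number in brackets) of each of the 54 gene lists called higher (right) and lower (left) in the L-UBB+1 strain at EX, in %, ordered by the median log2 fold change, with dashed lines at the shares of all genes (17.2% and 17.1%). Iron uptake, flocculins, transcription factors and copper lie at the top and ubiquinone synthesis, COS and DUP proteins and N-terminal acetylation at the bottom.

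Paralogue pairs were compared by the difference of their log2 fold changes. Of 103 pairs of duplicated genes measured, 43 (41.7%) differed at an adjusted p under 0.001. The test was limma on the difference of the pair within each array, adjusted over the 103 pairs, with no fold threshold. Single genes at an adjusted p under 0.001 by limma and no fold threshold numbered 1267 higher and 1239 lower of 5444. Pairs of unrelated genes were not compared, so the share is not shown to be particular to paralogues. With 1 array left out 20 to 46 pairs differed, the lowest count without control EX 2 (28 without control EX 1, 26 without L-UBB+1 EX 1), and 18 of the 43 pairs differed in every such fit. The 43 pairs were selected by their difference, which by itself favours opposite signs and single calls. In 34 of the 43 the fold changes had opposite signs, in 30 only 1 of the pair was called, and in 5 both were called in opposite directions. The widest of these 5 was *RGI1* and *RGI2*, 2 genes of energy metabolism. *RGI2* was at 11.92 and 11.99 in L-UBB+1 cells, against 5.93 and 5.77 in control cells, and *RGI1* was at 8.04 and 8.24 in L-UBB+1 cells and 11.73 and 10.60 in control cells. The difference of their log2 fold changes was -9.13 (*RGI1* minus *RGI2*, standard error 0.29, adjusted p = 5.66e-07).

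The other 4 such pairs came from separate processes. Of the acetyl-CoA synthetases, *ACS1* was at 11.36 and 11.59 in L-UBB+1 cells, against 8.10 and 7.94 in control cells, and *ACS2* at 7.86 and 7.79 in L-UBB+1 cells and 10.46 and 10.60 in control cells (difference 6.16, standard error 0.22). The branched-chain aminotransferases *BAT1*, of mitochondria, and *BAT2*, of the cytosol, had log2 fold changes of -2.38 and 1.55 (the call of *BAT2* was lost without either control EX array, adjusted p up to 0.0014). *RNR1* and *RNR3*, given above, differed by -4.25 (standard error 0.14). *NHP6A* and *NHP6B*, which encode near-identical HMG proteins of chromatin, were at -1.08 and 1.39 (difference -2.47, standard error 0.12). *NHP6B* was at 10.97 and 11.03 in L-UBB+1 cells, against 9.68 and 9.53 in control cells, and *NHP6A* at 8.68 and 8.77 in L-UBB+1 cells and 9.91 and 9.70 in control cells. *NHP6A* lost its own call without control EX 1 (log2 fold change -0.97), while the difference of the pair passed its test with each of the 8 arrays left out.

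Pairs in which only 1 gene was called came from many processes. *ADE17*, of the last steps of purine synthesis, was at 8.06 and 7.92 in L-UBB+1 cells, against 11.92 and 12.01 in control cells, while *ADE16*, with the same reaction, had a log2 fold change of -0.29 (difference 3.67, standard error 0.14). The thioredoxins *TRX1* and *TRX2* had log2 fold changes of -2.88 and 0.68, and the glutamate dehydrogenases *GDH1* and *GDH3* of -1.5 and 3.7 (the pair missed the threshold without either control EX array, adjusted p up to 0.00131). *GLG2*, which primes glycogen synthesis, rose by 2.82 (call lost without control EX 2, adjusted p 0.0012) while *GLG1* was at -0.10. Among signalling genes, the PP2A catalytic subunits *PPH21* and *PPH22* were at 0.57 and -1.58, *DBF2* and *DBF20* of mitotic exit at -0.11 and 1.9 (call of *DBF20* lost without either control EX array, adjusted p up to 0.0012), and *BOI1* and *BOI2* of bud growth at -0.07 and 2.21. The Rabs *YPT31* and *YPT32* were at -2.11 and 0.54. Of the 103 pairs, 21 differed by less than 0.5, and in 15 both were called in the same direction.

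**Figure D4:**
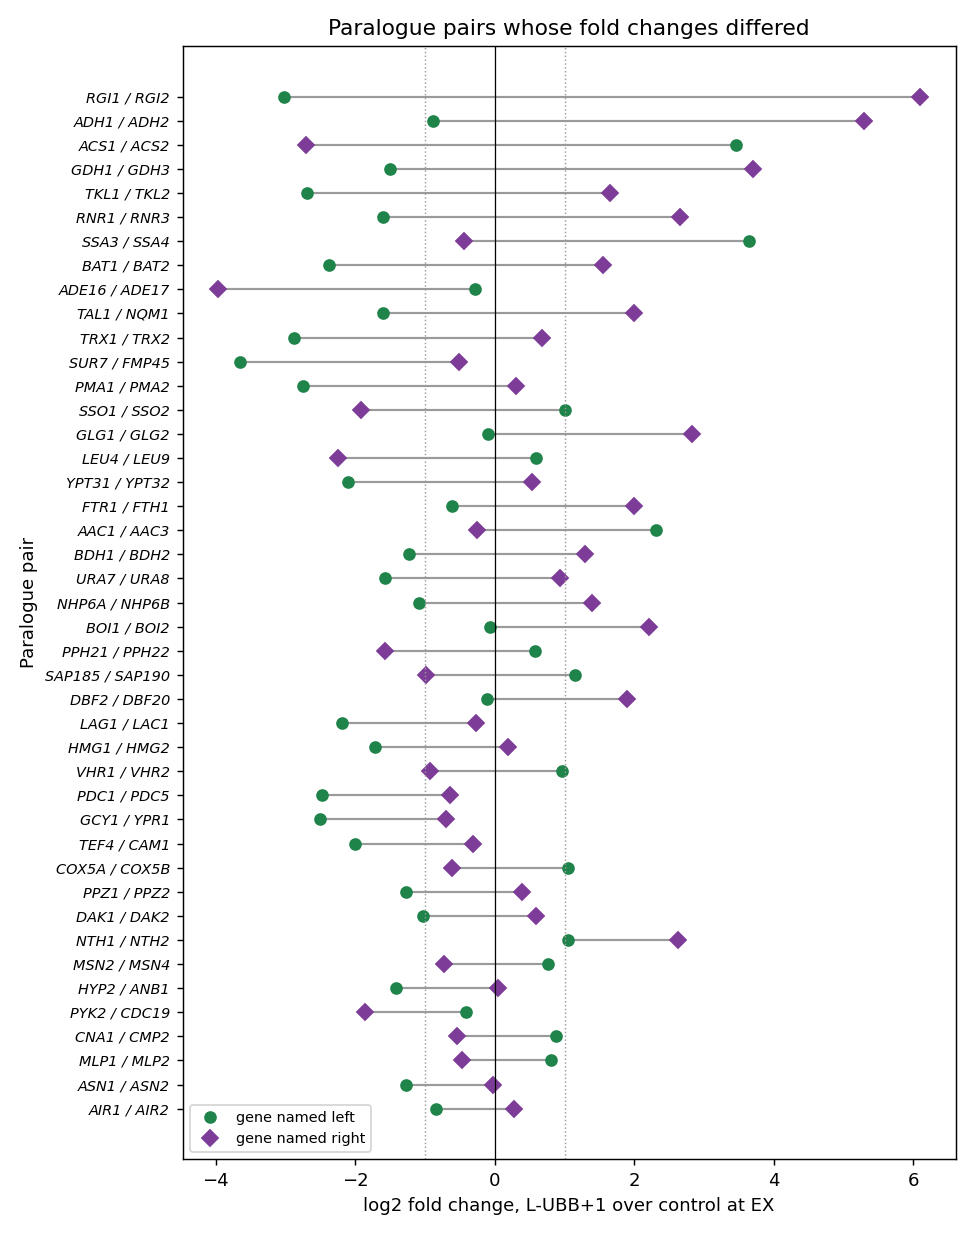
Log2 fold change of L-UBB+1 over control at EX for both genes of the 43 paralogue pairs that differed, ordered by the size of the difference; circles are the gene named left and diamonds the gene named right, and dotted lines mark 1 and -1. The points lie on opposite sides of 0 in 34 pairs, which the choice of pairs by their difference favours.

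Of 494 genes known only by a systematic name, 77 (15.6%) were called higher and 66 (13.4%) lower, against 17.2% and 17.1% of all genes; the difference was not tested. *YMR244W* was at 10.55 and 10.07 in L-UBB+1 cells, against 5.68 and 5.83 in control cells (log2 fold change 4.56, standard error 0.25), and *YMR206W* at 10.43 and 10.63 in L-UBB+1 cells and 6.13 and 5.84 in control cells (4.54, standard error 0.13). Both were close to the lower end of the signal in the control strain and well above the array medians in the L-UBB+1 strain. *YNL195C* (3.94), *YOR338W* (3.91) and *YDL218W* (3.47) followed; *YOR338W* lost its call without either control EX array (adjusted p up to 0.00142). *YOR385W* was at 6.87 and 7.13 in L-UBB+1 cells, against 10.16 and 10.31 in control cells (-3.24, standard error 0.19). *YLR179C* fell by 2.81 and *YNR021W* by 2.55, and *YMR321C* (-3.11) and *YOR072W-B* (-3.01) were read on probe sets that can also hybridize to other transcripts.

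Among the named genes with the largest rises that belong to none of the 54 gene lists, *FDH1*, a formate dehydrogenase, was at 10.48 and 10.77 in L-UBB+1 cells, against 5.69 and 5.62 in control cells (log2 fold change 4.97, standard error 0.14). *YIG1*, an inhibitor of glycerol synthesis, was at 11.35 and 11.24 in L-UBB+1 cells and 6.16 and 6.16 in control cells (5.14, standard error 0.12). *GRE1*, a hydrophilin made under dehydration and counted above among the markers of quiescence and stationary phase, rose by 4.91. Among the 10 largest falls, *TOS6* (-4.02), *YGP1* (-3.83) and *SVS1* (-3.83) encode cell wall proteins. The rest were *SSA2* (-4.28), *MET6* (-4.2), *ENO2* (-4.17), *HXT4* (-4.04) and *ERG6* (-3.88), with *DSE2* and *ADE17* given above. *SVS1* was at 6.54 and 6.75 in L-UBB+1 cells, against 10.40 and 10.55 in control cells. At the other end, bright genes with the smallest differences were *RPT1* and *PRE5* of the proteasome (0.01 and -0.02), *CDC48*, the segregase of ubiquitinated proteins (-0.02), and *ATP16* and *COX8* of oxidative phosphorylation (0.01 and 0.02). *CDC48* was at 11.21 and 11.32 in L-UBB+1 cells and 11.25 and 11.32 in control cells. The array values of all 5 overlapped between the strains.

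Called genes were spread over the genome. By chromosome, called rises ranged between 12 of 90 genes (chromosome I) and 102 of 511 (chromosome XV), and called falls between 43 of 316 (chromosome X) and 23 of 90 (chromosome I). Of 235 measured genes among the outermost 10 protein-coding genes of each chromosome end, 47 were called higher and 26 (11.1%) lower. In 5011 pairs of adjacent genes, 180 had both genes called higher, 180 both lower and 239 had 1 of each. Of the neighbours of a risen gene, 20.7% had risen, against 17.2% of all genes. Of the neighbours of a fallen gene, 21.2% had fallen, against 17.1%. These differences were not tested.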

How the data were processed

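The deposited log2 values per probe set, which the authors made from the scans with R and its PIANO package (R 3.2.3 in the submitters' processing notes, a later version in the methods; for the normalization method: not given in the sources used here), were used as deposited for all 8 arrays. Of 5705 probe sets, 216 had no gene named and were left out; 12 symbols were updated through gene IDs, and 43 genes had several probe sets. Gene order came from RefSeq assembly R64. The 4 group means were fitted with limma 3.58.1 in R 4.3.3 (4 residual and 3.26 prior degrees of freedom), without a block. The standard errors are limma's. Duplicates were biological by their labels, and nothing more is stated of them.

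The members, lists and pairs were chosen with earlier results of these data known. Chosen for naming were the 10 largest rises and falls without overlap, 5 of each among systematic names, up to 4 called members per list and all members of lists under 12. Both genes of pairs that differed, markers, the 5 genes with the smallest call and the 5 bright ones with the smallest change were chosen too. Not all genes chosen in this way are given above. Any further gene was named with its values known. The fits were tested on simulated data. Promoter and protein sequences were not analysed here. The number of arrays limits the precision.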

Additional observations from a re-analysis of the deposited data

Results flagged for a closer look

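Of the 216 probe sets with no gene named, which took no part in the comparison of genes, 75 (34.7%) were called between the L-UBB+1 and control strains at EX when fitted with the other probe sets by limma, 37 higher and 38 lower in the L-UBB+1 strain. Of all genes, 34.3% were called at EX, so the share of these probe sets lay near that background. The log2 fold changes of these probe sets ranged between -3.01 and 4.03. What these probe sets read is not known from the tables used here. No gene differed in its strain effect between EX and D6 at an adjusted p under 0.05 by limma, and 868 did at an unadjusted p under 0.05.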

How the results depend on the processing

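The counts of 938 rises and 929 falls stayed within 1.5 times under each scaling, filter, choice of probe set, set of arrays and prior that was tried. None of the genes called in both fits changed direction, which the fold threshold in both fits made unlikely in advance. With the replicate block the counts were 888 and 877, all of them among the genes called without it, and 37 paralogue pairs differed. With an adjusted p under 0.05 and no fold threshold, 2027 genes were higher and 2039 lower. With a log2 fold change of at least 2 the counts were 264 and 247. The methods' t-test on the 4 EX arrays gave 1763 and 1730 at an unadjusted p under 0.05, and 1504 and 1450 after Benjamini-Hochberg adjustment. With 1 array left out there were 707 to 966 rises and 717 to 955 falls, and 20 to 46 paralogue pairs. The lone array of a strain was then assumed to vary like the other groups.

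The replicate numbers did not pair the samples: the deviations of same-numbered arrays correlated between -0.855 and 0.364 across genes. A block with crossed numbers, chosen after seeing this, gave 996 rises and 988 falls. Without the L-UBB+1 arrays EX 1 and D6 2, also chosen after seeing the data, the counts were 764 and 699, and without EX 2 and D6 1 they were 804 and 758. Median centring moved the split to 884 and 972. Motif counts in promoters were not run. With 2 arrays per group, a small or variable change could miss the threshold, and a p that misses it does not show equal levels.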
